A study of Mus musculus with 5 samples.

Results

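The regions described here are 167 restriction fragments of the mouse genome at which both of 2 clones of CD8+ T cells were less methylated than the population they came from. They were chosen among 161264 fragments that had at least 10 molecules with a methylation call in each of the 3 libraries, clone 1, clone 2 and the population. A fragment's level is the share of methylated calls among all CpG calls on it, and the fragments were chosen by this level alone, where it lay 30 or more percentage points below the population in clone 1 and also in clone 2. Levels at these fragments and their differences from the population are therefore descriptions, given with no test.

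The cells were primary CD8+ T cells of C57BL/6 mice, the cytotoxic lymphocytes, obtained from naive T cells of the spleen that had been stimulated with IL2 at 1.2 ng/ml for 2 days and then sorted as CD8+ cells. For the sort the labels name antibodies to CD3 and CD28 and give no antibody to CD8. Clone 1 and clone 2 were each grown from 1 sorted cell and are labelled with 15 cell divisions. The population is the non-clonal culture and its divisions are labelled only as population. All 3 groups shared the strain, the culture and the library method. Each clone stands for 1 founder cell, its 2 labelled replicates are in 1 file and cannot be told apart, and the population has 1 sample, so the spread between replicates cannot be given for any value. Genomic DNA was cut with MspI, which cuts at CCGG whether or not the inner CpG is methylated, and fragments of 200 to 500 bp were ligated to molecular tags, treated with bisulfite and sequenced. Bisulfite turns unmethylated cytosines into uracils and spares methylated ones, and each tagged molecule so carries its own call at every CpG it covers.

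CpG methylation is copied onto the new DNA strand after replication, mainly by the maintenance enzyme Dnmt1, which is guided to hemimethylated sites by Uhrf1. Methylation is lost where this copying is incomplete, or where Tet enzymes oxidise the methylated base. In a clone, every cell descends from the same founder chromosomes, so a site copied faithfully keeps the founder's state. Activated CD8+ T cells are known to lose methylation at effector genes such as Ifng, which encodes interferon gamma, and Gzmb, which encodes granzyme B. The fragments carry numbers and no gene names, so no fragment is tied to these genes and the labelled cell type was not checked against markers.

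The libraries listed 11969176 molecules in clone 1, 8977287 in clone 2 and 8463942 in the population. The chosen fragments had a median of 26 molecules in clone 1, 19 in clone 2 and 21 in the population, against 29, 23 and 23 over all 161264 fragments. Counting error on 1 fragment is wide at this depth, and intervals and limits given below cover counting error only. The share of molecules with 1 read was 74.7% in clone 1, 59.6% in clone 2 and 57.1% in the population.

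Both clones sat about 40 points below the population at these fragments. The mean level over the 167 was 30.8% in clone 1, 31.6% in clone 2 and 74.0% in the population. Single fragments spanned 0 to 69.0% in clone 1, 0 to 70% in clone 2 and 35.8 to 100% in the population. The median difference from the population was 39.5 points in clone 1 and 40.2 points in clone 2. The rule fixes the direction of all these values, and nothing is read from it. Of all fragments compared, 1.01% were lower by 30 points or more in clone 1, 0.931% were so in clone 2, and 0.104% were so in both, which are the 167. The opposite difference, higher by 30 points or more, was found at 1.49% in clone 1, 1.77% in clone 2 and 0.554% in both.

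Few of the fragments were free of methylation in the clones. Levels of 10% or less in both clones were found at 15 fragments, and 2 of these had no methylated call in either clone. At 114 fragments both clones held levels above 10% and under 60%, and at 35 of them both clones lay between 40 and 60%. The population was at 90% or more at 26 of the fragments, at 60 to 90% at 102 and under 60% at 39. The smaller of the 2 differences was 30 to 40 points at 124 fragments, 40 to 50 points at 29 and 50 points or more at 14.

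**Figure D1:**
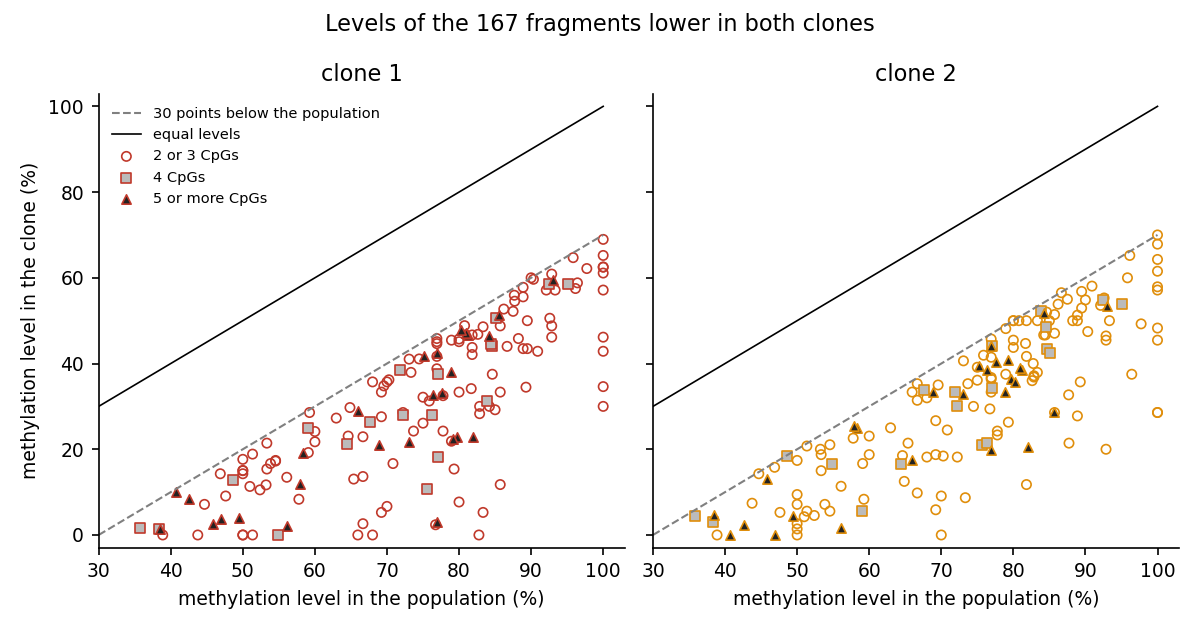
Methylation level of the 167 fragments in clone 1 (left) and clone 2 (right) on the vertical axis, against their level in the population on the horizontal axis, both in % of CpG calls; symbols give the number of CpGs in the fragment. All points lie on or under the dashed line by the rule, the clone levels spread from 0 to 69.0% in clone 1 and 0 to 70% in clone 2, and most points have 2 or 3 CpGs.

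The fragments were poor in CpGs, a property the rule did not use. Fragments with 2 or 3 CpGs made up 72.5% of the 167 and 29.5% of all fragments compared. Of the fragments with 2 CpGs, 0.324% were lower in both clones, 66 in number. This share was 0.202% at 3 CpGs, 0.0788% at 4 CpGs, 0.0361% at 5 to 9 CpGs and 0.0175% at 10 or more CpGs, where 5 fragments were found. A level over few CpGs rests on fewer calls and scatters more, and a fragment with 2 or 3 CpGs had a median of 33 population calls, against 117 at 5 or more CpGs. Of the fragments that were higher by 30 points or more in both clones, 894 in number, 35.2% had 2 or 3 CpGs. They were 0.712% of the fragments with 2 CpGs and 0.335% of those with 10 or more. Room to be that much higher was unequal, and it ended at 70% in the population. The population was under 60% at 4814 of 47576 fragments with 2 or 3 CpGs, against 47530 of all 161264. These counts leave out fragments at 60 to 70%, and 50 of the 894 were above 60% in the population. The leans of the lower and the higher fragments are therefore not compared.

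**Figure D2:**
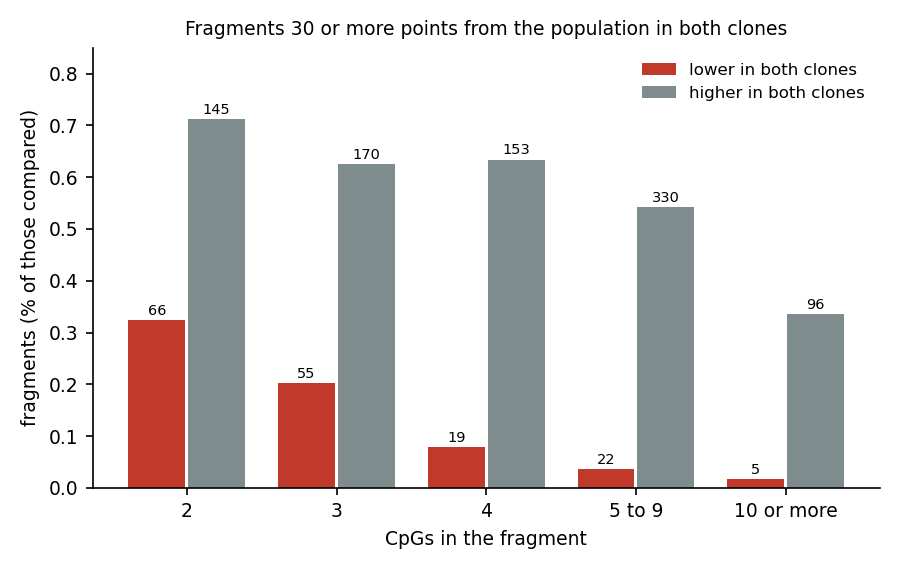
Share of the compared fragments (vertical axis, %) that were lower or higher than the population by 30 points or more in both clones, by the number of CpGs in the fragment (horizontal axis); numbers above the bars are fragments. Lower fragments took 0.324% at 2 CpGs and 0.0175% at 10 or more, and higher fragments took 0.712% and 0.335%.

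The lean of the lower fragments to few CpGs held within classes of the population's level. Among fragments at 70 to 90% in the population, 0.425% of those with 2 or 3 CpGs and 0.113% of those with 5 or more were lower in both clones. Among those at 50 to 70%, these shares were 1.22% and 0.161%. At 90% or more in the population, 23 of 27524 fragments with 2 or 3 CpGs and 1 of 35265 with 5 or more were lower in both.

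The widest differences were at fragments with 2 CpGs that were fully or mostly methylated in the population. Fragment 782699 had 3 methylated of 10 calls in clone 1 and 4 of 14 in clone 2, against 12 of 12 in the population. At fragment 1020434, 9 of 26 calls were methylated in clone 1, 6 of 21 were in clone 2 and 12 of 12 were in the population. Clone 1 kept 1 methylated call of 15 at fragment 1021017 and clone 2 kept 0 of 11, which allows up to 27.3%, against 7 of 10 in the population. The clones were within 7 points of each other at each of these and at least 63.3 points under the population. In a fragment with 2 CpGs each strand reads its own CpG, so this distance also holds the mix of strands. At fragment 1020434, CpG 1 was methylated on 0 of 15 calls in clone 1 and 3 of 17 in clone 2, against 4 of 4 in the population. Its CpG 2 was methylated on 9 of 11 calls in clone 1 and 3 of 4 in clone 2, against 8 of 8 in the population. With each CpG and strand weighted by its calls in the population, the difference at this fragment was 45.5 points in clone 1 and 44.1 points in clone 2.

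At other fragments of this list the level over all calls was nearly equal in the clones and lay between 23.3% and 46.2%, which pools unlike CpGs at 2 of the 3. Fragment 52371 had 6 methylated of 13 calls in clone 1 and 5 of 11 in clone 2, against 13 of 13 in the population. With 3 CpGs, fragment 1172861 gave 10 methylated calls of 29 in clone 1, 10 of 28 in clone 2 and 25 of 28 in the population. The methylated calls of fragment 1505152 were 8 of 33 in clone 1, 7 of 30 in clone 2 and 14 of 18 in the population. At fragment 1505152, CpG 1 was methylated on 2 of 24 calls in clone 1 and 0 of 23 in clone 2, against 6 of 8 in the population. Its CpG 2 was methylated on 6 of 9 calls in clone 1 and 7 of 7 in clone 2, against 8 of 10 in the population. With the mix held fixed, this fragment differed from the population by 33.8 points in clone 1 and 17.6 points in clone 2, against 53.5 and 54.4 points over all calls. At fragment 1172861, CpG 1 was methylated on 9 of 10 calls in clone 1 and 8 of 13 in clone 2, against 9 of 9 in the population. Its CpG 2 was methylated on 1 of 19 calls in clone 1 and 2 of 15 in clone 2, against 16 of 19 in the population.

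**Figure D3:**
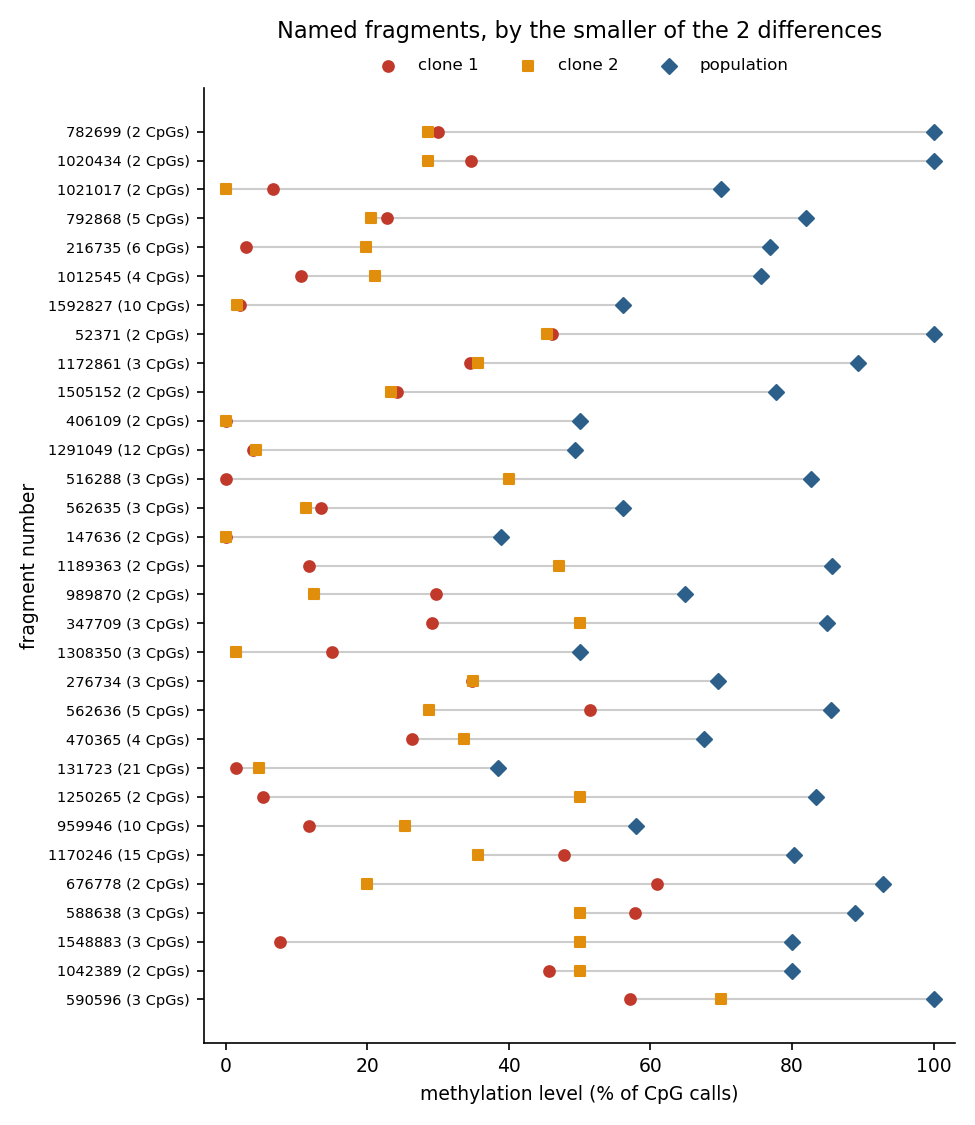
Methylation level (horizontal axis, % of CpG calls) of the named fragments in clone 1, clone 2 and the population, ordered from the widest to the narrowest by the smaller of the 2 differences from the population (vertical axis, fragment number and its CpGs). The population point lies to the right of both clone points in every row, and the gap between the clone points runs from 0 at fragments 406109 and 147636 to 44.7 points at fragment 1250265.

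Fragment 216735, with 6 CpGs, shows how the molecules themselves differed. In the patterns that follow, ● is a methylated CpG, ○ an unmethylated one and · one that was not observed, in the order of the CpGs along the fragment. Molecules of the plus strand left the last CpG unobserved and those of the minus strand the first. In clone 1, the pattern ○○○○○· was carried by 7 plus-strand molecules and ·○○○○○ by 11 minus-strand molecules. In clone 2, ○○○○○· was again carried by 7 plus-strand molecules, while the commonest minus-strand pattern was ·○○··· on 5 molecules, followed by ·○·●○● on 3. In the population, ●●●●●· was the commonest plus-strand pattern, on 4 molecules, and ·●●●●● the commonest of the minus strand, on 2. A molecule was counted as methylated where over 50% of its observed CpGs were. By this count clone 1 had 0 of 31 methylated molecules, which allows up to 9.68%. For clone 2 it was 1 of 31, with an exact Clopper-Pearson 95% interval of 0.082 to 16.7%, and for the population 14 of 18, with 52.4 to 93.6%.

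Single CpGs of fragment 216735 were not alike in the clones. The fourth CpG was methylated on 0 of 27 calls in clone 1 and 11 of 24 in clone 2, against 9 of 13 in the population. At the fifth CpG the calls were 3 of 27 in clone 1 and 0 of 24 in clone 2, against 14 of 16 in the population. The last CpG was unmethylated in clone 1, with 0 of 12, but fully methylated in clone 2, with 8 of 8, against 6 of 7 in the population. In clone 2 an intermediate, an unmethylated and a methylated CpG so stood next to each other, while clone 1 was low at all 6.

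The commonest pattern of fragment 792868 was mixed in clone 1, with both kinds of call, and unmethylated in clone 2. That of fragment 1012545 held no methylated call in either clone. At fragment 792868, with 5 CpGs, 3 plus-strand molecules of clone 1 carried ●○○○· and 4 minus-strand molecules carried ·○●○○. In clone 2, 3 plus-strand molecules carried ○○○○·, and in the population 4 carried ●●●○·. Its level was 22.8% in clone 1, 20.6% in clone 2 and 82.0% in the population. At fragment 1012545, with 4 CpGs, ○○·· was carried by 3 plus-strand molecules of clone 1 and 6 of clone 2, while the population had ●○●· and ●●●· on 3 plus-strand molecules each. Its level was 10.7% in clone 1, 21.1% in clone 2 and 75.6% in the population.

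The 5 fragments with the most CpGs were intermediate or high in the population, and 3 of them were nearly unmethylated in the clones. Fragment 131723, with 21 CpGs, had 5 methylated of 339 calls in clone 1 and 25 of 527 in clone 2, against 121 of 314 in the population. CpG 5 was methylated on 0 of 17 calls in clone 1 and 12 of 26 in clone 2, against 5 of 17 in the population. The 12 CpGs of fragment 1291049 gave 3 methylated calls of 78 in clone 1, 4 of 92 in clone 2 and 84 of 170 in the population. Its population level was 77.3% on 8 plus-strand molecules and 27.4% on 12 minus-strand molecules, and the clones had 3 plus-strand molecules in clone 1 and 2 in clone 2. With the mix held fixed, this fragment differed from the population by 22.2 points in clone 1 and 24.8 points in clone 2. Fragment 1592827, with 10 CpGs, had 1 methylated call of 49 in clone 1, 1 of 65 in clone 2 and 385 of 686 in the population. Clone 1 was read only at CpGs 3, 6, 7, 8 and 9, and clone 2 had at most 2 calls at each of the others.

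Fragment 1592827 also differed in its molecules. It had 11 molecules in clone 1 and 12 in clone 2, against 107 in the population, the most of any of the 167 fragments. Plus-strand molecules were 11 of 11 in clone 1 and 10 of 12 in clone 2, against 52 of 107 in the population. On that strand alone the level was 2.04% in either clone, against 62.8% in the population. The clones read only CpGs 3, 6, 7, 8 and 9 there, while the population also read CpGs 1, 2, 4 and 5. With the mix held fixed, this fragment differed from the population by 59.6 points in clone 1 and 60 points in clone 2. Unequal numbers of molecules, over 3 times apart between libraries relative to the library totals, were found at 5 of the 167 fragments (2.99%) and at 1.61% of all fragments compared. Their part in the level differences was not tested. The remaining CpG-rich fragments kept more methylation. Fragment 959946 was at 11.8% in clone 1 and 25.3% in clone 2, against 57.9% in the population. Fragment 1170246 was at 47.8% in clone 1 and 35.6% in clone 2, against 80.2% in the population.

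**Figure D4:**
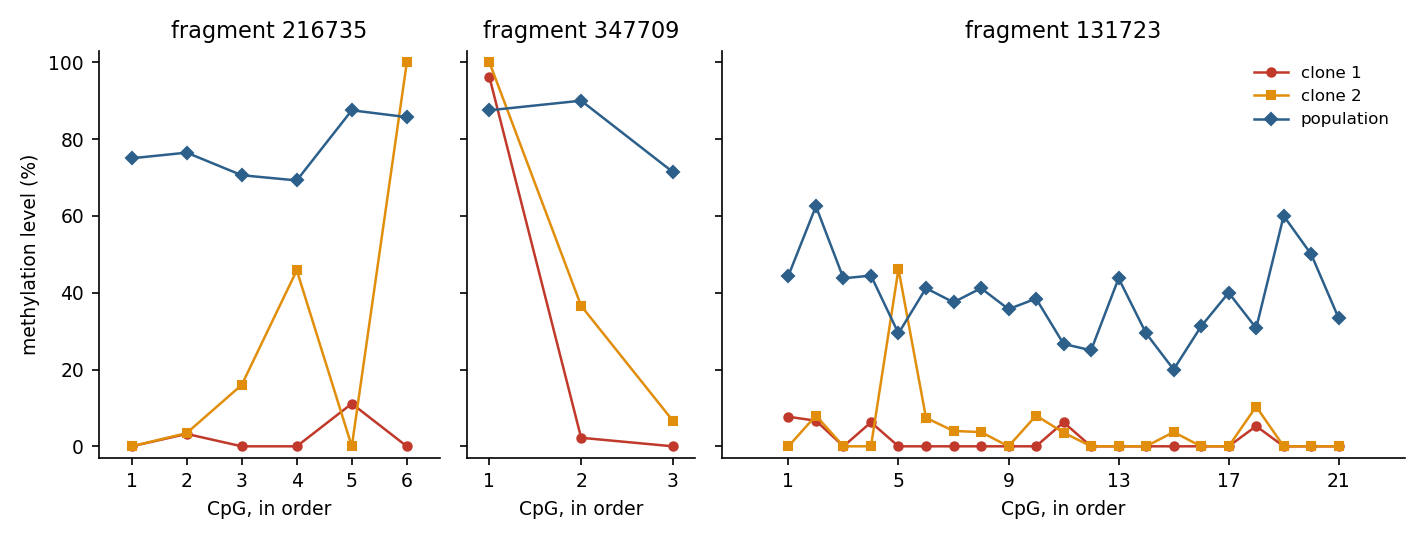
Methylation level (vertical axis, %) of each CpG in order along fragments 216735, 347709 and 131723 (horizontal axis), over both strands, in clone 1, clone 2 and the population; these 3 were picked for display after their values were seen. At fragment 347709 the first CpG is at 96.2% in clone 1, 100% in clone 2 and 87.5% in the population, and the other CpGs are lower in the clones. At fragment 131723 the clones stay near 0, with CpG 5 of clone 2 at 46.2%.

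The deepest of the fragments gave the firmest view of single CpGs. Fragment 347709, with 3 CpGs, was sampled by 47 molecules in clone 1, 43 in clone 2 and 31 in the population. Its first CpG was methylated on 25 of 26 calls in clone 1 and 24 of 24 in clone 2, against 14 of 16 in the population. At the second CpG, calls were 1 of 45 in clone 1 and 15 of 41 in clone 2, against 27 of 30 in the population. The third CpG was methylated on 0 of 18 calls in clone 1 and 1 of 15 in clone 2, against 10 of 14 in the population. Neighbouring CpGs of 1 fragment thus held opposite states, and the same first CpG was methylated in both clones.

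Other deep fragments differed in which CpGs were lower. Fragment 1308350, with 3 CpGs, had 1 methylated of 46 calls at its second CpG in clone 1 and 0 of 36 in clone 2, against 16 of 28 in the population. At CpG 3, clone 1 had 11 methylated calls of 19 and clone 2 had 1 of 14, against 6 of 16 in the population. Fragment 588638 was at 57.8% in clone 1 and 50% in clone 2, against 88.9% in the population. Its CpG 3 was methylated on 18 of 18 calls in clone 1 and 11 of 26 in clone 2, against 13 of 14 in the population. Fragment 470365, with 4 CpGs, was at 26.3% in clone 1 and 33.7% in clone 2, against 67.6% in the population. Its first CpG was methylated on 18 of 18 plus-strand calls in clone 1 and 8 of 16 in clone 2, against 14 of 14 in the population. Fragment 989870, with 2 CpGs, was at 29.7% in clone 1 and 12.5% in clone 2, against 64.9% in the population.

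Single CpGs of a fragment differed in how they stood against the population. With at least 5 calls in each library, 426 CpGs of 165 fragments could be followed, and 253 of them (59.4%) were lower by 30 points or more in both clones. Over all compared fragments 0.521% of CpGs were so, and since these calls chose the fragments nothing is read from the contrast. Of 112 fragments with 2 or more such CpGs, 94 had some CpGs lower by 30 points in both clones and some not, 10 had all of them lower, and 8 had none. Of the 426 CpGs, 12, at 11 fragments, lay within 10 points of the population in both clones. In at least 1 clone, 57 of the 426 were higher than the population. Values on as few as 5 calls scatter widely around the limit. CpGs between the first and the last of a fragment passed that limit at 66.8% (139 of 208), against 52.3% (114 of 218) of the first and last ones. The same calls chose the fragments, and CpGs in between are mostly read on both strands and so weigh more in the level. Fragments with 2 CpGs have only first and last ones. Nothing is therefore read from this difference either.

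Fully methylated molecules were fewer and unmethylated ones more frequent in the clones, and mixed molecules were slightly more frequent there than in the population. This was measured at 84 fragments with at least 5 molecules per library that covered 2 or more CpGs. Fully methylated molecules averaged 9.54% in clone 1 and 12.03% in clone 2, against 49.96% in the population. Unmethylated molecules averaged 45.3% in clone 1 and 44.4% in clone 2, against 11.3% in the population. Mixed molecules, with both kinds of call, took 45.2% in clone 1 and 43.6% in clone 2, against 38.7% in the population. No fully methylated molecule was seen at 46 of the 84 fragments in clone 1 and at 40 in clone 2, against 1 in the population. These shares follow in part from the level, which chose the fragments. Over molecules that covered 4 or more CpGs, at 22 fragments, fully methylated ones averaged 3.81% in clone 1 and 5.17% in clone 2, against 37.3% in the population.

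The 2 strands of a fragment mostly read different CpGs, so a level also depends on how molecules divide between strands. At fragment 989870, 8 of 9 plus-strand calls of the first CpG were methylated in clone 1 and 4 of 4 in clone 2, against 14 of 16 in the population. The second CpG, read by the minus strand, was methylated on 2 of 27 calls in clone 1 and 0 of 28 in clone 2, against 10 of 21 in the population. Of its molecules, 9 were of the plus strand in clone 1 and 4 in clone 2, against 16 in the population. The second CpG was lower in the clones, and the strand that reads it was also the more frequent one there. With the mix held fixed, the fragment differed from the population by 22.2 points in clone 1 and 21.6 points in clone 2.

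Uneven strands were more frequent at the chosen fragments. The rarer strand held under 20% of the molecules at 25.7% of them in clone 1 and 36.5% in clone 2, and at 11.98% in the population. Over all fragments compared these shares were 12.3% in clone 1, 19.2% in clone 2 and 7.20% in the population. Among fragments with 2 or 3 CpGs, the chosen ones had 32.2% in clone 1, 43.8% in clone 2 and 14.9% in the population. All compared fragments with 2 or 3 CpGs had 19.3% in clone 1, 27.3% in clone 2 and 12.3% in the population.

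With the mix of strands and CpGs held fixed, the median differences were close to those above, although single fragments moved. When each CpG on each strand was weighted by its calls in the population, over those with at least 3 calls in every library, the median difference was 38.5 points in clone 1 and 38.6 in clone 2. With these weights 120 of the 167 fragments stayed 30 points or more below the population in both clones, and 160 stayed at least 20 points below. At 1 fragment the direction turned in clone 1, which was at 68.8% with these weights, against 50% in the population. In at least 1 clone the difference over all calls was more than 1.5 times that with fixed weights at 26 of the 167. CpGs read fewer times on a strand drop out, so at fragments with uneven strands the fixed mix can rest on 1 strand alone. These weights were chosen after the data were seen.

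Both strands could be followed at 113 fragments with at least 3 molecules per strand and library. The level was lower than in the population on both strands and in both clones at 87 of them. A difference of 30 points or more in both clones was present on both strands at 18, on 1 strand at 82 and on neither at 13. At 102 CpGs read at least 5 times on each strand in each library, the plus strand averaged 20.9% in clone 1 and 22.6% in clone 2, against 65.7% in the population. The minus strand averaged 21.4% in clone 1 and 26.1% in clone 2, against 65.8% in the population. At 65 of these 102 CpGs both strands were lower by 20 points or more in both clones, and at 11 neither was.

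**Figure D5:**
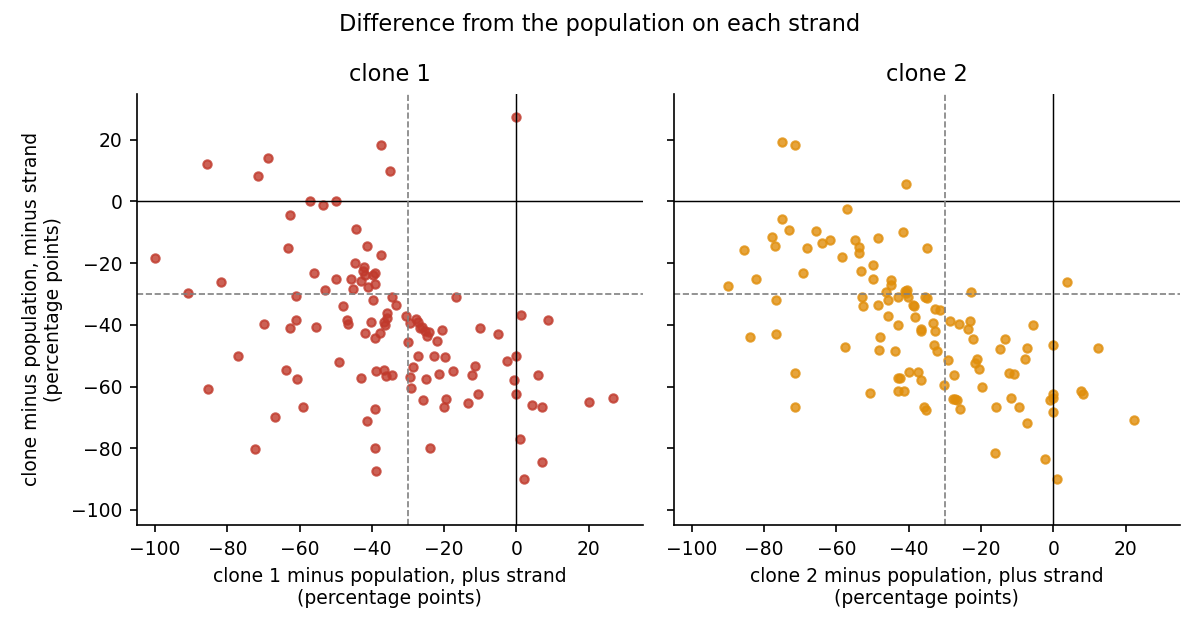
Level in clone 1 (left) and clone 2 (right) minus the level in the population, in percentage points, on the plus strand (horizontal axis) and the minus strand (vertical axis) of the 113 fragments with at least 3 molecules per strand and library; dashed lines mark 30 points. Most points lie under 0 on both axes, 87 of 113 fragments in both clones, and 18 lie past both dashed lines in both clones.

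Molecules that had no part in the choice gave smaller differences. The rule was applied to plus-strand molecules alone, and minus-strand molecules of the same fragments were then measured. It chose 112 fragments, 36 of them among the 167, and 50 had at least 10 minus-strand molecules in each library. Their plus-strand level was 37.5% in clone 1 and 35.8% in clone 2, against 79.7% in the population. Their minus-strand level was 64.3% in clone 1 and 60.8% in clone 2, against 72.1% in the population. The minus strand was lower than the population at 33 of the 50 in clone 1 and at 35 in clone 2.

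By Fisher's exact test (two-sided) on minus-strand molecules, with Benjamini-Hochberg adjustment over all fragments, 2 of the 50 were called lower in clone 1 and 3 in clone 2, and none higher. A call needed an adjusted p under 0.05 together with 20 points or more between the libraries. Of all fragments tested, 0.330% were called lower in clone 1 and 0.216% in clone 2. Without adjustment, 22% of the 50 in clone 1 and 34% in clone 2 had a p under 0.05 in either direction, against 5.61% of all fragments tested in clone 1 and 5.35% in clone 2. With the minus strand choosing, 2 of 72 were called lower in either clone, and with 5 molecules per strand 9 of 202 were called in clone 1 and 3 of 202 in clone 2. The share called in clone 2 was so 2.78% and 1.49% under these settings, against 6% of the 50. These tests compare libraries and not conditions, and both clones were set against the same population library.

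The same CpG on the opposite strand followed more closely. Among 88267 CpGs with at least 10 calls on each strand in each library, the plus strand was lower by 30 points or more in both clones at 476, of which 11 lie on the 167 fragments. There the plus strand averaged 24.8% in clone 1 and 24.5% in clone 2, against 70.3% in the population. The minus strand of the same CpGs averaged 29.5% in clone 1 and 28.9% in clone 2, against 58.2% in the population. It was lower than in the population at 422 of the 476 in clone 1 and at 419 in clone 2. Fisher's exact test with the same adjustment called 40 of the 476 lower in clone 1 and 37 in clone 2, and none higher. Of all minus-strand CpGs tested, 0.348% were called lower in clone 1 and 0.265% in clone 2. Without adjustment, 42.4% of the 476 in clone 1 and 39.3% in clone 2 had a p under 0.05, against 5.79% of all CpGs tested in clone 1 and 5.55% in clone 2. This comparison was added after the data were seen.

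The direct comparison of the clones was not part of the rule, although the rule holds both levels under the population. The difference in level between clone 1 and clone 2 had a median of 7.14 points, was within 10 points at 101 fragments and was over 20 points at 22. The median over all 184187 fragments tested between the clones was 3.33 points. Fisher's exact test on methylated molecules, with Benjamini-Hochberg adjustment over 184187 fragments, called 3 of the 167 (1.80%), against 3.78% of all fragments tested. Without adjustment, 13 of the 167 (7.78%) had a p under 0.05, against 9.28% of all fragments tested. The count depended on the setting: on the deepest CpG of each fragment 17 of 143 (11.9%) were called, against 7.81% of all tested that way. With molecules at 50% left out 1 of 151 was called, against 2.49% of all tested, and with 2 or more reads 0 of 34, against 1.13%. Of the 3 calls, 2 were lower in clone 1 and 1 was higher, against 2.06% lower and 1.71% higher of all fragments tested.

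The fragments with the closest clones had few CpGs. Fragment 406109 had 0 of 17 methylated calls in clone 1 and 0 of 17 in clone 2, against 7 of 14 in the population. Counts of 0 on its 16 and 17 molecules allow up to 18.8% in clone 1 and 17.6% in clone 2. No call was methylated at fragment 147636 among 14 in clone 1 and 13 in clone 2, against 7 of 18 in the population, and its 13 molecules in each clone allow up to 23.1%. Fragment 276734 was at 34.8% in clone 1 and 35% in clone 2, against 69.6% in the population. The first and second of these had no methylated call in either clone, and the last pooled unlike CpGs. Its CpG 1 was methylated on 3 of 17 calls in clone 1 and 2 of 14 in clone 2, against 6 of 13 in the population, and its other CpGs were read at most 4 times in a clone and mostly methylated.

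The fragments with the clones furthest apart did not pass the test between clones. Fragment 1250265 was at 5.26% in clone 1 and 50% in clone 2, against 83.3% in the population, with an adjusted p of 0.0716 between the clones (Fisher's exact test). Fragment 1548883 was at 7.69% in clone 1 and 50% in clone 2, against 80% in the population (adjusted p 0.149, Fisher's exact test). Most of its calls in the clones were of CpG 3, methylated on 0 of 11 in clone 1 and 7 of 15 in clone 2, against 8 of 12 in the population. Fragment 676778 was at 60.9% in clone 1 and 20% in clone 2, against 92.9% in the population (adjusted p 0.585, Fisher's exact test). This level pools unlike CpGs. Its CpG 1 was methylated on 6 of 15 calls in clone 1 and 1 of 9 in clone 2. Its CpG 2 was methylated on 8 of 8 calls in clone 1 and 1 of 1 in clone 2. At fragment 516288, 0 of 14 calls were methylated in clone 1, 4 of 10 were in clone 2 and 24 of 29 were in the population (adjusted p 0.324 between the clones, Fisher's exact test). At fragment 1189363 the methylated calls were 2 of 17 in clone 1, 8 of 17 in clone 2 and 12 of 14 in the population (adjusted p 0.585, Fisher's exact test).

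The fragments were scattered, and 1 pair had adjacent numbers. Fragment 562635, with 3 CpGs, was at 13.5% in clone 1 and 11.4% in clone 2, against 56.1% in the population. Fragment 562636, with 5 CpGs, was at 51.4% in clone 1 and 28.7% in clone 2, against 85.6% in the population. The pair shared the direction and not the level, with the second fragment higher in every library.

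Fragments next by number, whose molecules had no part in the choice, differed less from the population. There were 44 such neighbours with at least 10 molecules in each library and not themselves among the 167. Their mean level was 53.6% in clone 1 and 56.5% in clone 2, against 59.8% in the population. At 19 of the 44 (43.2%) both clones were lower, against 23.2% of all fragments compared, and 2 were lower by 30 points or more in clone 1 and 2 in clone 2. At the next but 1 number, 38 neighbours averaged 77.9% in clone 1 and 76.1% in clone 2, against 77.9% in the population. The files do not state that consecutive numbers lie next to each other in the genome.

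The limit of 30 points cut through a continuous range. The smaller difference was exactly 30 points at 4 fragments, in clone 2 at fragments 1042389, 1548883 and 590596 and in clone 1 at fragment 1332670. Just outside it, fragments 1285680, 420500 and 405211 had 29.8 points as the smaller of their 2 differences. Fragment 1285680 was at 35.1% in clone 1 and 42.1% in clone 2, against 72.0% in the population.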

How the data were processed

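Data came from 5 samples as 3 deposited text files: 1 for the population and 1 for each clone, with a clone's 2 replicates together. Per the submitters' processing notes, Bismark and the mouse build mm9 were used. The version, the filters and how a clone's replicates were joined are stated in none of the sources used here. The files have no header. Each line holds the number of a fragment, its strand, a tag of 6 bases, a deposited string of 0, 1 or not observed per CpG, a deposited count of reads, and a whole number of unstated meaning. The authors' counts are not normalized. Each line with a call was taken as 1 molecule. Levels, differences and tests were computed with Python 3.11.15, pandas 2.3.3 and scipy 1.17.1. Calls between libraries used two-sided Fisher's exact tests on molecules with more than 50% of observed CpGs methylated (ties counted as unmethylated), at least 10 molecules in both libraries, Benjamini-Hochberg adjustment over all fragments, and called at adjusted p under 0.05 with 20 points or more between libraries. Scripts were tested on simulated data. Intervals are exact binomial at 95%. A count of 0 is given the limit of 3 counts of the molecules, in place of an interval. Named fragments are the 10 with the widest smaller difference, the 5 with most CpGs, the 5 deepest, the 5 with the clones furthest apart, the 3 with the closest clones, adjacent pairs, and 3 on either side of the limit. Fragments called between the clones are named as well. Fragments and lists were chosen with earlier results of these data known. Genome positions and sequences were not used here. Alternatives were other molecule minimums, limits, level definitions, strands, read counts and CpGs.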

Additional observations from a re-analysis of the deposited data

Results flagged for a closer look

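At 3 of the 167 fragments the clones differed from each other by a direct test between them (two-sided Fisher's exact test, adjustment over all fragments). This is 1.80% of them, against 3.78% of all fragments tested between the clones. At fragment 32953, with 2 CpGs, clone 1 had 0 methylated molecules of 31 (over 50% of observed CpGs methylated), which allows up to 9.68%, while clone 2 showed 8 of 25 (exact 95% interval 14.9 to 53.5%), a difference of -32.0 points with adjusted p 0.0249, against 17 of 25 in the population. At fragment 1264433, with 3 CpGs, clone 1 had 0 of 27, which allows up to 11.1%, while clone 2 showed 6 of 17 (14.2 to 61.7%), a difference of -35.3 points with adjusted p 0.0471, against 17 of 32 in the population. At fragment 1027502, with 3 CpGs, clone 1 had 17 of 33 (33.5 to 69.2%) while clone 2 showed 2 of 26 (0.946 to 25.1%), a difference of 43.8 points with adjusted p 0.0190, against 32 of 40 in the population. On the plus strand of fragment 1027502 the second CpG was methylated on 16 of 24 calls in clone 1 and 1 of 23 in clone 2, against 16 of 20 in the population, while the first was methylated on 14 of 24 calls in clone 1 and 12 of 23 in clone 2, against 17 of 20 in the population. With molecules at 50% left out, fragment 32953 was called again (adjusted p 0.0342, Fisher's exact test), while fragment 1264433 had an adjusted p of 0.0652 and fragment 1027502 one of 0.422. On the deepest CpG of each fragment, the calls at 1027502 and 1264433 were made again (adjusted p 0.000517 and 0.0258, Fisher's exact test) and that at 32953 was not (0.390). With 2 or more reads per molecule none of the 3 had enough molecules to be tested.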

How the results depend on the processing

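No paired analysis was possible because each clone's replicates share 1 file and the population has 1 sample; for the same reason no replicate could be left out. The number of fragments was 52 of 74757 compared with at least 20 molecules per library and 8 of 19572 with at least 30, against 167 of 161264. Of the same 161264 it was 686 with a limit of 20 points, 43 with 40 points and 14 with 50 points. It was 489 of 161264 when the level was the share of molecules with more than 50% methylated CpGs (151 of them in common). Molecules with 2 or more reads gave 55 of 37119 (20 in common), and leaving out the first and last CpG gave 340 of 134563 (72 in common). The count was within 1.5 times of 167 for the mean over CpGs (193 of 161052), last value 0 (164 of 158727), plus strand (112 of 75561, 36 in common) and minus strand (145 of 75914, 47 in common). It was so too for fixed weights (180 of 161196), 3 molecules per strand (113 of 133496) and without unequal molecule numbers (162 of 158669). These last 3 were added after the data were seen. Far fewer fragments could be compared on 1 strand, so a like count there is a larger share.

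The mean level, given for clone 1, clone 2 and the population where it left the counting interval of the main value, was 32.8% in clone 1 and 72.3% in the population at 20 molecules; 28.7%, 26.8% and 71.1% at 30 molecules; 40.03%, 39.9% and 72.4% at 20 points; 21.1% and 23.8% in the clones at 40 points; and 19.2%, 21.3% and 79.4% at 50 points. It was 28.7% and 27.9% in the clones for the mean over CpGs, 27.9%, 27.3% and 72.0% for the share of molecules, 26.3%, 26.4% and 71.0% without the first and last CpG, 33.5% in clone 2 with 2 or more reads, and 76.4% in the population on the minus strand. The clones lay below the population under each of these, which the rule ensures. At 20 molecules, with 74757 fragments compared, 595 were lower in clone 1 alone and 539 in clone 2 alone. At 10 molecules, with 161264 compared, these were 1457 and 1335.

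Between the clones, 3 of the 167 were called in the main setting, against 3.78% of all fragments tested. With molecules at 50% left out 1 of 151 was called, against 2.49% of all tested that way. The deepest CpG of each fragment gave 17 of 143, against 7.81%. With 2 or more reads, where 34 of the 167 could be tested, 0 were called, against 1.13%. With 4 or more observed CpGs, fully methylated, mixed and unmethylated molecules averaged 3.81%, 53.7% and 42.5% in clone 1, 5.17%, 57.4% and 37.4% in clone 2, and 37.3% and 51.6% (the first and second kinds) in the population. Neighbours differed from the population by -6.14 points in clone 1 and -3.27 in clone 2, against -0.0497 in clone 1 at 2 numbers away and 1.24 in clone 1 and 5.19 in clone 2 at 3 numbers away. The causes were not tested. Depth limits single fragments: 8 of the 167 had 30 molecules in every library.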
